A study of Homo sapiens with 6 samples.

Results

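SNU-387 is an established cell line from a human pleomorphic hepatocellular carcinoma, and 10 of its genes, the E2F family E2F1 to E2F8 and the DP partners TFDP1 and TFDP2, were followed here out of 58219 gene identifiers counted. They were chosen by gene symbol, with earlier results of these data known. All 10 passed the filter on low counts that left 14239 genes for testing. The cells stably expressed a short hairpin RNA against the tyrosine kinase YES1 (shYES1, n = 3) or a non-target hairpin (shNT, n = 3), so every library came from hairpin-expressing cells of the same line. Poly(A) RNA was purified with Trizol and a Qiagen column and made into stranded KAPA libraries. Neither the sequence nor the number of YES1 hairpins is stated in the sources used. Nothing in the labels tells whether the samples of a group were separate cultures, so p-values cover sample-to-sample spread that could be purely technical.

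E2F proteins are the transcription factors through which the retinoblastoma protein controls entry into S phase. E2F1, E2F2 and E2F3 are called activators because, once released from the retinoblastoma protein, they switch on genes for DNA replication, among them E2F genes themselves. E2F4 and E2F5 bind the related pocket proteins and hold the same genes down in resting cells. E2F6 works without pocket proteins, in a Polycomb complex, and E2F7 and E2F8 bind DNA without a DP partner and shut down replication genes after they have been switched on. TFDP1 and TFDP2 encode the DP proteins with which E2F1 to E2F6 form DNA-binding pairs.

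In shYES1 cells all 3 activator genes fell, E2F2 the most, while the repressor genes split. E2F7, the E2F gene with the most RNA per length in shYES1 cells, rose 1.54-fold. E2F6 rose 1.31-fold. E2F8, a close relative of E2F7, went the other way and fell 3.18-fold, the largest change in the family. By edgeR's quasi-likelihood test 8 members were called lower and 2 higher at an adjusted p under 0.05, where 32.8% of all genes tested were called lower, 32.5% higher and 65.3% in either direction. The groups did not overlap for any of the 10 members, as for 67.9% of all genes tested. Being called is common in these data, and the members' total of 10 is read against that. The median log2 fold change of the members was -0.35, against -0.00469 over all genes tested. RNA of whole cultures was measured, so fewer cells in a given phase of the cycle and less RNA per cell cannot be told apart.

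The promoters are shown first because E2F factors act on genes of their own family through a short DNA site. RefSeq windows (GRCh38.p14) of 300 bases, 250 of them before an annotated start, were matched by symbol for 8 of the 10 members, 11 windows in all, the other members being E2F5 and E2F8. They were searched on both strands for the E2F site written as TTTCGCGC, TTTGGCGC, TTTCCCGC or TTTGCCGC. A match was present for all 3 activators and for TFDP1, 4 of 11 windows, against 3.31% of all 35116 windows and 4.89% of those of tested genes. In the windows of E2F1 (chr20:33686336-33686635, minus strand), E2F2 (chr1:23531184-23531483, minus strand), E2F3 (chr6:20401629-20401928, plus strand) and TFDP1 (chr13:113584503-113584802, plus strand), printed 5′ to 3′, capitals mark the E2F site.

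E2F1: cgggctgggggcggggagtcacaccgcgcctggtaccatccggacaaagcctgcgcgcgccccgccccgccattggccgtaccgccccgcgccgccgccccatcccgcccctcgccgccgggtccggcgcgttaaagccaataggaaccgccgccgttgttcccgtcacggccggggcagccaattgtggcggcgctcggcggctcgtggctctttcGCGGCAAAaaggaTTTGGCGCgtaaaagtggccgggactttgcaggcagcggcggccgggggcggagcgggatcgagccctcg

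E2F2: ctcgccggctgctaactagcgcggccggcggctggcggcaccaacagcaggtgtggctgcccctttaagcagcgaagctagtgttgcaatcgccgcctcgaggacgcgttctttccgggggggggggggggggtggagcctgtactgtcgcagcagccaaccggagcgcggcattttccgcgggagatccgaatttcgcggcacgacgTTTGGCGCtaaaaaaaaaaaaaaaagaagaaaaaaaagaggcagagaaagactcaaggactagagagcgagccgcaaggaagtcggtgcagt

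E2F3: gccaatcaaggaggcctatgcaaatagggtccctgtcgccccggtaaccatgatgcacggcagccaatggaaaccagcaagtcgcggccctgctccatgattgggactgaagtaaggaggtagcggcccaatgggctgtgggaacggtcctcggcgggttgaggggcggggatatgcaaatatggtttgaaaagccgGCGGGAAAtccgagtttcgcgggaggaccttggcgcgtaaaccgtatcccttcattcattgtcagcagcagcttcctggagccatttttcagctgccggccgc

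TFDP1: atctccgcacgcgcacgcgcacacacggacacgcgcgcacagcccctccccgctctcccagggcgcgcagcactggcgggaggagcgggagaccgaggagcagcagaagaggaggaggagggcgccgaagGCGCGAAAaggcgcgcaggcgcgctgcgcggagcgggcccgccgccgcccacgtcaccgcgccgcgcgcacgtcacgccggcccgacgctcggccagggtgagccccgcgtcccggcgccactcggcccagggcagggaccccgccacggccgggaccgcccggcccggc

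E2F1 held 2 matches, starting at -33 and -20 from the annotated start, which did not overlap. E2F2 had its match at -42, E2F3 at -53 and TFDP1 at -120. E2F3 also held the letters TTTGAA, the cell cycle homology region by which many G2/M genes are controlled, at -65. TFDP2 held it in 2 of its windows. These letters stood in 15.2% of all windows and 10.6% of those of tested genes. A second E2F3 window and the windows of E2F4, E2F6, E2F7 and TFDP2 held none of the E2F spellings searched. The window of E2F7 (chr12:77065520-77065819, minus strand) is printed because E2F7 had the most RNA per length of the E2F genes in shYES1 cells. E2F4 and TFDP2, which fell, and E2F6 and E2F7, which rose, all had windows without these spellings.

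E2F7: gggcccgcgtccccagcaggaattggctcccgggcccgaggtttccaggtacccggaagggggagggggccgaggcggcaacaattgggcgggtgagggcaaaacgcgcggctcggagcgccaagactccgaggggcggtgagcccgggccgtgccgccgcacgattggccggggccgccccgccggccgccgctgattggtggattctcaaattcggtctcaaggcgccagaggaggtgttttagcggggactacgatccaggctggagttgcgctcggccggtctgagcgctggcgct

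The matches describe letters in these windows and are not binding sites measured in these cells.

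Of the activators, E2F1 is the family member most closely tied to S phase entry and, when deregulated, to cell death. E2F1 (ENSG00000101412.12, GRCh38 chromosome 20, 33675683 to 33686404) had 12.5, 13.6 and 13.2 CPM (read counts relative to library size, scaled by TMM factors) in shYES1 libraries 1 to 3, against 18.9, 17.9 and 19.8 CPM in shNT libraries 1 to 3. The highest shYES1 library was below the lowest shNT library. E2F1 fell 1.45-fold (log2 fold change -0.53, SE 0.0782, 95% interval -0.69 to -0.37, edgeR adjusted p = 7.07e-08). E2F2 (ENSG00000007968.6, chromosome 1, 23506430 to 23531220), the scarcest activator, had 1.58, 1.88 and 1.89 CPM in shYES1 and 4.52, 3.94 and 4.56 CPM in shNT. It rested on 22 to 37 reads per shYES1 library and 52 to 72 per shNT library, and the groups were still well apart. E2F2 fell 2.43-fold (log2 fold change -1.28, SE 0.18, edgeR adjusted p = 2.49e-08). E2F3 (ENSG00000112242.14, chromosome 6, 20401906 to 20493715), whose gene makes an activating long form and a shorter form from a second promoter, had 27, 23.3 and 25.1 CPM in shYES1 and 31.6, 35.3 and 35.2 CPM in shNT. The deposited counts are per gene and hold both forms together. E2F3 fell 1.35-fold (-0.43, SE 0.0615, edgeR adjusted p = 3.53e-08), the smallest change among the activators.

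**Figure D1:**
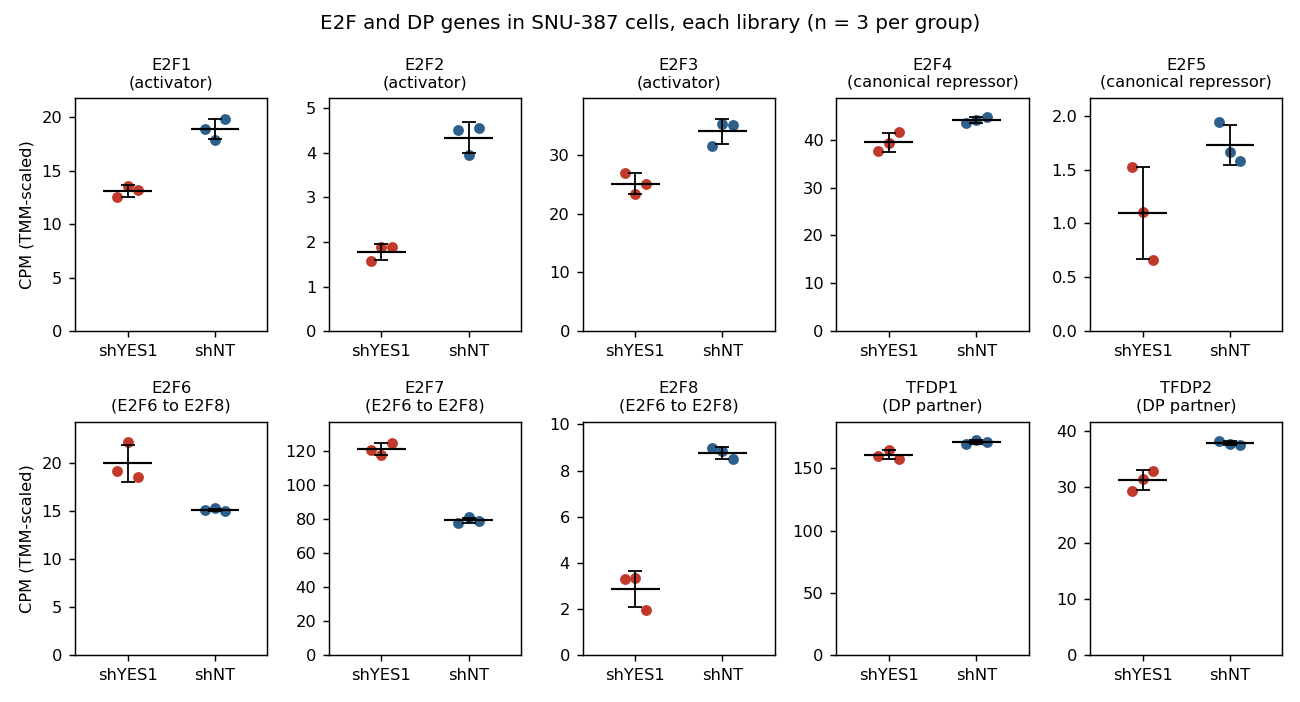
TMM-scaled CPM (vertical axis, starting at 0 in each panel) of the 10 E2F and DP genes in the 3 shYES1 libraries (red) and the 3 shNT libraries (blue), with 1 point per library and the mean and SD in black. E2F6 and E2F7 lie higher in shYES1 and the other 8 genes lower, with no overlap between groups in any panel.

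E2F4 and E2F5, the pocket-protein-bound repressors, moved less firmly. E2F4 (ENSG00000205250.8, chromosome 16, 67192169 to 67198918) had 37.6, 39.3 and 41.6 CPM in shYES1 and 43.4, 44.2 and 44.7 CPM in shNT. The groups were close, and the fall was 1.11-fold (log2 fold change -0.15, SE 0.0511, edgeR adjusted p = 0.00749). That call was lost when libraries were scaled by size only (log2 fold change -0.0573, edgeR adjusted p = 0.331), with DESeq2 (adjusted p = 0.0548) and without shYES1 sample 1 (edgeR adjusted p = 0.0669), within a range of 4.64e-05 to 1 over all alternatives.

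E2F5 (ENSG00000133740.10, chromosome 8, 85177225 to 85217158) was near the floor of detection, with 1.52, 1.11 and 0.664 CPM in shYES1 and 1.94, 1.66 and 1.58 CPM in shNT. These are 13 to 25 reads per library in shYES1 and 22 to 25 in shNT. The log2 fold change of -0.68 (SE 0.272, edgeR adjusted p = 0.0269) was carried largely by shYES1 sample 3, without which it was -0.35 (edgeR adjusted p = 0.305). The call was also lost with library-size scaling, DESeq2 and unstranded counts and without shNT sample 1, and adjusted p ranged from 0.00449 to 0.305 over the alternatives. E2F5 shares 969 exon bases with C8orf59, a gene on the opposite strand, and 90% to 96.6% of the stranded reads listed for E2F5 fell on that opposite strand. For the other 9 members that share was at most 4.35%. How many of the few reads counted for E2F5 come from its neighbour was not tested.

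The repressors that work without pocket proteins split. E2F7 (ENSG00000165891.15, chromosome 12, 77021247 to 77065580) had 121, 118 and 125 CPM in shYES1, against 78, 81.1 and 78.9 CPM in shNT. The lowest shYES1 library stood far above the highest shNT library, and the spread within each group was small. E2F7 rose by 0.62 on the log2 scale (SE 0.0359, edgeR adjusted p = 3.35e-20), and 7.97% of all genes tested changed upward by as much or more. E2F8 (ENSG00000129173.12, chromosome 11, 19224063 to 19241620) had 3.29, 3.34 and 1.94 CPM in shYES1 and 8.97, 8.85 and 8.49 CPM in shNT. The third shYES1 library was the lowest, and all 3 lay below the shNT libraries. On the log2 scale E2F8 changed by -1.67 (SE 0.147, edgeR adjusted p = 6.06e-14), and by -1.40 without shYES1 sample 3. Only 1.54% of all genes tested fell by as much or more. The within-library ratio of E2F7 to E2F8 RNA per length was 24.3, 23.2 and 42.3 in shYES1 and 5.71, 6.02 and 6.1 in shNT. The ratio averaged 29.9 ± 10.7 in shYES1 and 5.94 ± 0.207 in shNT (SD, n = 3 each), and the third shYES1 library set the wide spread.

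E2F6 (ENSG00000169016.16, chromosome 2, 11444375 to 11466177), the Polycomb-linked repressor, had 19.2, 22.2 and 18.6 CPM in shYES1 and 15.1, 15.3 and 15 CPM in shNT. The shYES1 libraries varied more than the shNT libraries but all lay above them. E2F6 rose by 0.38 on the log2 scale (SE 0.0773, edgeR adjusted p = 2.6e-05).

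Of the DP partners, TFDP1 had the smallest change of the family and TFDP2 a larger one than E2F4. TFDP1 (ENSG00000198176.12, chromosome 13, 113584721 to 113641470), the main DP gene of dividing cells, had 160.03, 165 and 158 CPM in shYES1 and 169.5, 173 and 171 CPM in shNT. Every shYES1 value was lower, by a narrow margin. TFDP1 fell 1.06-fold (log2 fold change -0.0878, SE 0.0302, edgeR adjusted p = 0.01), but the change was 0.00908 (adjusted p = 0.81) when libraries were scaled by size only, so its direction depends on the scaling. DESeq2 (adjusted p = 0.0566), the fit with no low-count filter (edgeR adjusted p = 0.0941) and the fit without shYES1 sample 3 (edgeR adjusted p = 0.0607) also lost the call, within a range of 1.28e-06 to 1 over all alternatives. TFDP2 (ENSG00000114126.17, chromosome 3, 141944428 to 142149544) had 29.3, 31.4 and 32.9 CPM in shYES1 and 38.1, 37.7 and 37.4 CPM in shNT. Its fall of 1.21-fold (log2 fold change -0.27, SE 0.0555, edgeR adjusted p = 3.61e-05) kept its call under each alternative but the test against a 1.2-fold change (adjusted p = 0.414, within 2.11e-07 to 0.414). Reads of TFDP3, a DP gene of the X chromosome that is not among the 10, numbered 0 or 1 in each library.

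**Figure D2:**
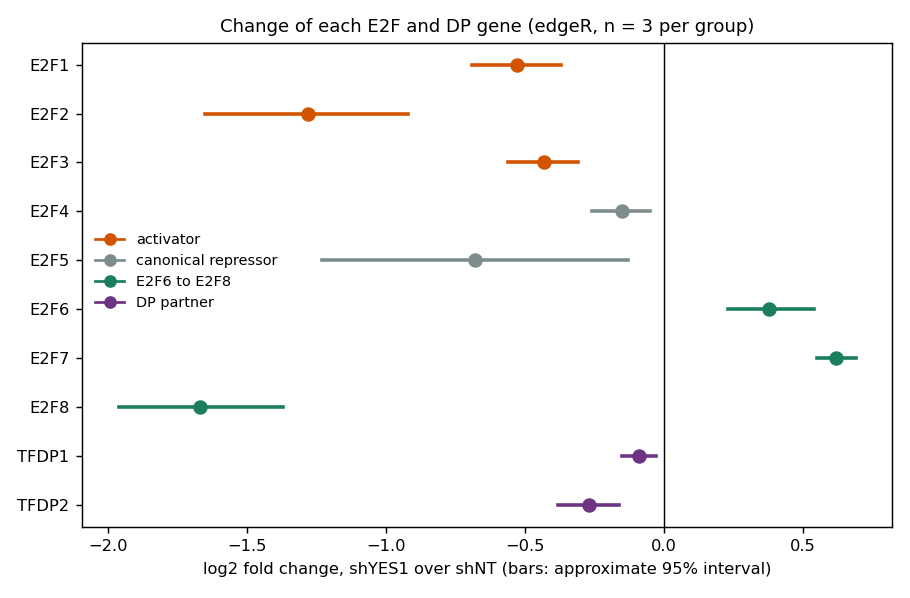
Log2 fold change of each E2F and DP gene, shYES1 over shNT (horizontal axis), with its approximate 95% interval from edgeR (n = 3 per group), coloured by role. E2F6 at 0.38 and E2F7 at 0.62 lie right of 0, the higher side, and the call of E2F4, E2F5 and TFDP1 and the direction of TFDP1 depend on the scaling, while E2F8 at -1.67 and E2F2 at -1.28 lie farthest to the left.

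Because levels of different genes can be compared only per length, CPM was divided by the summed length of each gene's annotated exons (RPKM). In shYES1 cells the order was TFDP1 (43.1 ± 0.94 RPKM), E2F7 (19.3 ± 0.566), E2F4 (11 ± 0.562), E2F1 (5.24 ± 0.228), E2F6 (4.92 ± 0.467), E2F3 (4.87 ± 0.364), TFDP2 (2.62 ± 0.155), E2F8 (0.69 ± 0.191), E2F2 (0.327 ± 0.0321) and E2F5 (0.185 ± 0.0724; SD, n = 3). E2F1, E2F6 and E2F3 overlapped there and had no clear order. In shNT cells the order was TFDP1 (45.7 ± 0.406 RPKM), E2F7 (12.6 ± 0.258), E2F4 (12.3 ± 0.181), E2F1 (7.53 ± 0.382), E2F3 (6.59 ± 0.409), E2F6 (3.72 ± 0.041), TFDP2 (3.17 ± 0.0293), E2F8 (2.12 ± 0.0602), E2F2 (0.795 ± 0.0644) and E2F5 (0.292 ± 0.0314; SD, n = 3). Here E2F7 and E2F4 overlapped, whereas E2F1, E2F3 and E2F6 did not. E2F7 was thus clear of E2F4 in shYES1 but not in shNT, and E2F6 was level with E2F1 and E2F3 in shYES1 but below both in shNT.

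Activators and repressors were then summed per library. The activators E2F1 to E2F3 together held 10.4 ± 0.127 RPKM in shYES1 and 14.9 ± 0.564 RPKM in shNT. Because E2F3 counts hold both its forms, the activator sum and the ratios made from it include the shorter form. E2F4 and E2F5 together held 11.2 ± 0.49 RPKM in shYES1 and 12.6 ± 0.15 RPKM in shNT. E2F6 to E2F8 together held 24.9 ± 0.094 RPKM in shYES1 and 18.4 ± 0.301 RPKM in shNT (SD, n = 3 each). The activator sum was lower and the E2F6 to E2F8 sum higher in every shYES1 library than in any shNT library. The sum over all 8 E2F genes overlapped between groups, at 46.5 ± 0.544 RPKM in shYES1 and 45.9 ± 0.685 RPKM in shNT (SD, n = 3 each), while the make-up of that sum differed.

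The ratio of activator to repressor RNA, taken over E2F4 to E2F8, was 0.296, 0.285 and 0.287 in shYES1 and 0.472, 0.468 and 0.502 in shNT. Against E2F6 to E2F8 alone it was 0.424, 0.412 and 0.422 in shYES1 and 0.794, 0.782 and 0.853 in shNT. Against E2F4 and E2F5 it was 0.977, 0.92 and 0.895 in shYES1 and 1.17, 1.16 and 1.22 in shNT. All 3 ratios were lower in every shYES1 library. E2F7 alone made up 41.4% ± 0.969 of summed E2F RNA per length in shYES1 and 27.4% ± 0.522 in shNT, and E2F1 made up 11.2% ± 0.44 in shYES1 and 16.4% ± 0.793 in shNT (SD, n = 3 each). E2F8 made up 1.48% ± 0.424 in shYES1 and 4.61% ± 0.195 in shNT. Within the higher E2F6 to E2F8 sum, E2F7 and E2F6 were higher and E2F8 lower. The summed DP RNA per length was 0.983 ± 0.0251 times that of the E2F genes in shYES1 and 1.06 ± 0.0131 times in shNT. These sums combine chosen members and carry no test.

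**Figure D3:**
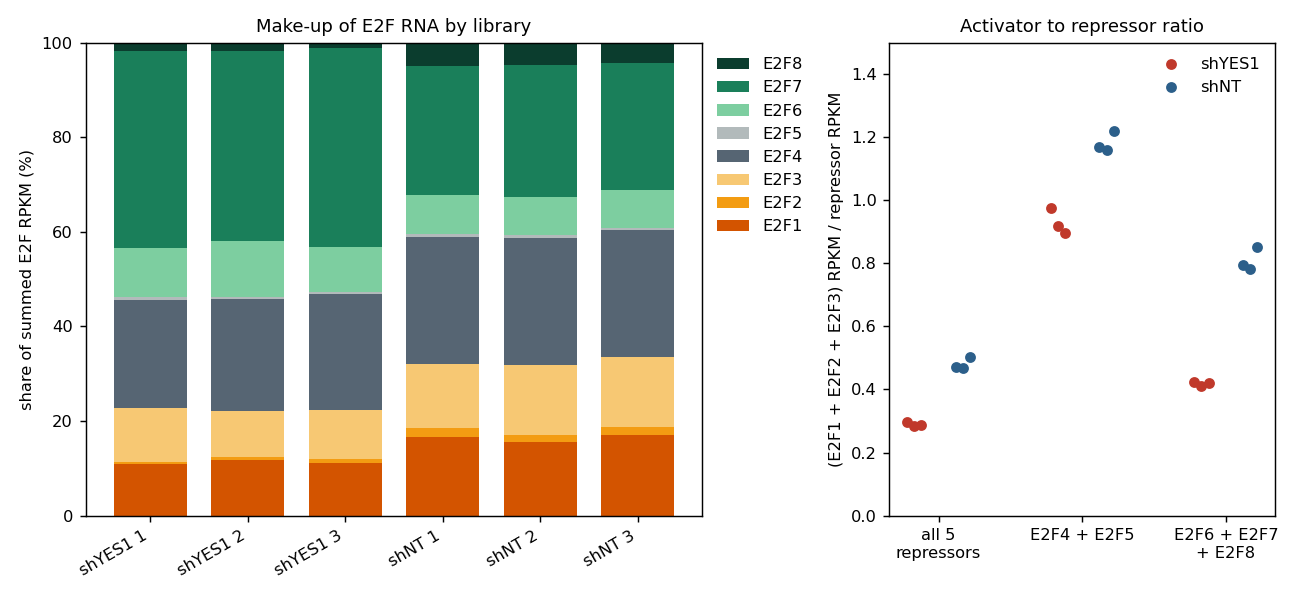
Left, the share of each E2F gene in the summed RPKM of the 8 E2F genes (percent, vertical axis) for each library, activators at the bottom and E2F6 to E2F8 at the top, and right, the ratio of activator RPKM to the RPKM of 3 sets of repressors (linear axis from 0), with 1 point per library in red (shYES1) or blue (shNT). E2F7 takes 41.4% of the sum in shYES1 and 27.4% in shNT, and all 3 ratios are lower in shYES1.

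Genes around the family were read from lists by role, and a gene is said to rise or fall only at an edgeR adjusted p under 0.05. Among the pocket proteins, which hold E2F factors in check, RB1 had 87.1 ± 2.48 CPM in shYES1 and 70.1 ± 1.18 CPM in shNT and rose by 0.32 on the log2 scale. RBL1, encoding p107 and itself a known E2F target, had 10.9 ± 0.524 CPM in shYES1 and 30.4 ± 0.848 CPM in shNT and fell 2.79-fold (-1.48). RBL2, encoding p130, the pocket protein of resting cells, fell by less (-0.36). Of the MuvB core and its partners, the complex that joins E2F4 and p130 in resting cells and MYBL2 and FOXM1 in dividing cells, 6 of 8 genes fell and none was called higher, where 32.8% of all genes were called lower. FOXM1, the G2/M activator, had 69.7 ± 3.26 CPM in shYES1 and 135 ± 5.25 CPM in shNT (-0.96), and MYBL2 fell as well (-0.62). The core genes LIN9 (-0.72), LIN54 (-0.39) and RBBP4 (-0.32) fell, and DYRK1A, the kinase that assembles the resting form, fell slightly (-0.14), while LIN37 (0.32) and LIN52 (0.0266) did not pass.

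The cyclins, kinases and inhibitors that set how far the retinoblastoma protein is phosphorylated gave 7 lower and 5 higher of 13 tested, where 32.8% of all genes were lower and 32.5% higher. CDK4, a kinase of the retinoblastoma protein, had 36.2 ± 1.62 CPM in shYES1 and 94.2 ± 3.3 CPM in shNT (-1.39), and CDK6 also fell (-0.56). The cyclin E genes, known targets of activator E2Fs, both fell (CCNE2 -2.02, CCNE1 -0.91), as did CCNA2 (-1.24). CCND1, encoding cyclin D1, did not pass, with 658 ± 4.87 CPM in shYES1 and 672 ± 15.1 CPM in shNT. The inhibitor genes CDKN1A (1.52), CDKN1C (1.40), CDKN2D (0.95) and CDKN1B (0.65) rose with CCND3 (0.67), and CDKN2C fell (-0.29). CDKN2A and CDKN2B, inhibitors of CDK4 and CDK6, had 0 or 1 read in each library and were not tested.

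Genes that activator E2Fs are known to switch on for DNA replication were lower as a whole. All 41 on the list were tested and all 41 fell, where 32.8% of all genes did. Of the 41, 20 were at least 2-fold lower, where 6.23% of all genes tested were. Their median log2 fold change was -0.92, where that of all genes was -0.00469. The largest falls were those of TYMS (-2.27), MCM2 (-1.76), UNG (-1.67) and CDT1 (-1.66), the last a licensing factor of replication origins. All 19 G2/M genes fell too (median -0.89), led by KIF11 (-1.43), CDC25C (-1.38), TOP2A (-1.37) and UBE2C (-1.18). The log2 fold changes of E2F2 (-1.28) and E2F8 (-1.67) lay below both medians, and those of E2F1 (-0.53) and E2F3 (-0.43) above them.

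Single apoptosis genes known as E2F1 targets are given without a count, since the list is not reported in full. BCL2L11, encoding the cell death protein BIM, had 120.2 ± 3.14 CPM in shYES1 and 80.6 ± 0.772 CPM in shNT (0.58). BBC3, encoding PUMA, rose by less (0.35), PMAIP1, encoding NOXA, fell (-0.21), and APAF1 did not pass (0.12). TP73 was too scarce to test, with 4, 2 and 1 reads in shYES1 and 6, 16 and 13 reads in shNT.

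Of the 12 genes of the Polycomb complex PRC1.6 to which E2F6 belongs, 4 rose, 3 fell and 5 did not pass, near the 65.3% called in either direction over all genes, with a median log2 fold change of -0.0199. RYBP had 42.8 ± 1.39 CPM in shYES1 and 99.6 ± 1.57 CPM in shNT (-1.21) and MAX fell (-0.75), whereas L3MBTL2 rose (0.25). CBX3 fell slightly (-0.0634, edgeR adjusted p = 0.0421). Only 2 of the PRC1.6 genes were called lower with RLE scaling, library size only, DESeq2, no low-count filter or the sample number as a block. The same number was called lower in the test against 1.2-fold, without shYES1 sample 1, 2 or 3, and without shNT sample 2. TMM factors were also taken only from genes whose 3' UTR lacks the sequence CCTTTC, which an earlier look at these data had singled out. The PRC1.6 list then gave 1 higher and 5 lower, where 3568 of 14239 genes tested were higher and 5692 lower. None of 7 germline genes that E2F6 is known to silence in mouse passed the filter. They had 0 to 5 reads each in every library, and the rise of E2F6 could not be set against them at this depth. Of the genes that mark E2F proteins for degradation, SKP2 (-0.78) and CCNF (-0.68) fell, SKP1 rose (0.14), and CUL1 (0.0433) and FZR1 (0.022) did not pass. The rise of SKP1 did not hold with the CCTTTC-based factors.

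**Figure D4:**
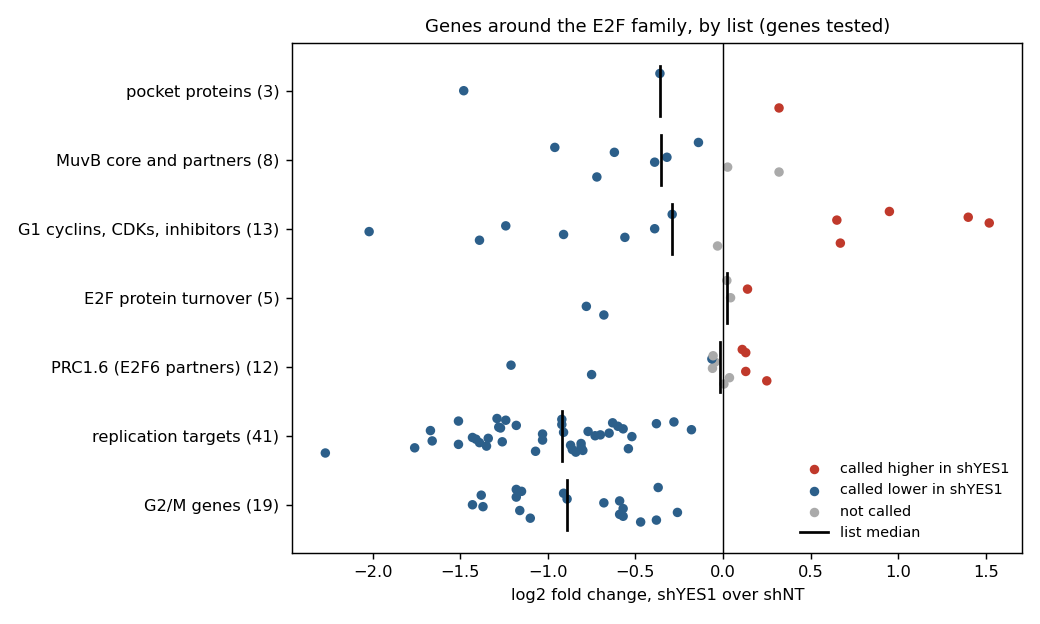
Log2 fold change, shYES1 over shNT (horizontal axis), of the tested genes of 7 lists around the E2F family, with 1 point per gene and the list median as a black line, red and blue where the edgeR threshold was passed. All replication targets and G2/M genes lie below 0, with medians of -0.92 and -0.89.

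The libraries held 11290889 to 18944148 gene reads, and Pearson correlations of log2 CPM across genes, which are not independent replicates, were 0.994 to 0.996 within groups and 0.969 to 0.97 between them. YES1, the targeted gene, was 4.06-fold lower in shYES1 (44.1 ± 1.7 CPM) than in shNT (179 ± 1.65 CPM; edgeR adjusted p = 7.93e-40). Scaling moves the balance of calls over all genes, which was 49.7% higher in the analysis given here, 60.7% with library size only and 38.5% with scaling on genes without CCTTTC. Hepatocyte markers were nearly absent: 6 of 9 had any read, TTR, HNF4A and CYP3A4 were at 0, and the summed level was 19.8 to 22.4 CPM in shYES1 and 19.5 to 22.8 CPM in shNT, mostly SERPINA1. These sums were not TMM-scaled. The epithelial tumour list summed to 1100 to 1127 CPM in shYES1 and 738 to 748 CPM in shNT, nearly all of it KRT8 and KRT18. EPCAM went the other way, with 0.792 to 1.24 CPM in shYES1 and 1.32 to 1.48 CPM in shNT. AFP had at most 0.709 CPM in any library, and GPC3 was at 0. Leukocyte markers summed to 38.4 to 41.2 CPM in shYES1 and 41.2 to 44.9 CPM in shNT, nearly all of it CD14, with CD3E at 0. Endothelial markers summed to 23.9 to 24.5 CPM in shYES1 and 23.9 to 25.1 CPM in shNT. Within that sum VWF was higher in shYES1 (1.33 to 1.74 CPM) than in shNT (0.183 to 0.468 CPM). PECAM1 was lower in shYES1 (10.8 to 12 CPM) than in shNT (13.1 to 14 CPM), and CDH5 and KDR overlapped between groups. The part of any of these marker lists in the E2F results was not tested.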

How the data were processed

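Stranded poly(A) RNA libraries of 6 SNU-387 samples were analysed. The deposited values are raw read counts per gene, with no normalization. STAR 2.5.1b, Trimmomatic 0.35, CASAVA 1.8.2 and the build GRCh38 are listed, without roles, per the submitters' processing notes, and no annotation release is named. The reverse-strand counts were used, since 93.5% to 94% of stranded gene reads fell on that strand. Entries naming no gene held 19.8% to 20.3% of reads and were left out. Of 58219 identifiers 57437 were matched to symbols, and coordinates and exon lengths come from GENCODE release 29. No member shares exon bases with another gene on its own strand.

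Counts were tested in R 4.3.3 with edgeR 4.0.16 (filterByExpr with a minimum count of 10, TMM, robust quasi-likelihood test, Benjamini-Hochberg adjustment over 14239 genes, threshold 0.05). Standard errors and 95% intervals derive from the F statistic and are approximate. CPM and RPKM were computed from the deposited counts, RPKM with the summed length of all annotated exons. Values are mean ± SD, n = 3 libraries per group. Libraries of a group differed by more than sampling noise (chi-square per degree of freedom 1.15 to 2.2), and each was counted separately in the fit. That spread does not tell whether they were separate cultures.

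The members and gene lists were chosen with earlier results of these data known. Some genes of the apoptosis list are not reported here, a choice that did not rest on their values, and the list has no count or median. All members and YES1 are named, of lists with up to 16 genes any tested gene, and of longer lists up to 4 called, non-overlapping genes in each direction by size of change. The results were recomputed with DESeq2 1.42.0, limma-voom 3.58.1, scaling by RLE or by library size, 2 other low-count filters, the sample number as a block, unstranded counts, and each library left out. A test against 1.2-fold and scaling on genes without CCTTTC were chosen after seeing the data. The edgeR, DESeq2 and voom steps were tested on simulated data with 200 changed genes. There edgeR recovered 51% of changes of 0.25 on the log2 scale, 72% of changes of 0.5 and 96% of changes of 1. Of its calls 2.47% were false. Far fewer genes changed in the simulation than were called here, so it cannot check the scaling.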

Additional observations from a re-analysis of the deposited data

How the results depend on the processing

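Of the 10 members, 6 (E2F1, E2F2, E2F3, E2F6, E2F7 and E2F8) kept their call and direction under all 16 alternatives. E2F6 did so only narrowly in the edgeR test against 1.2-fold (adjusted p = 0.0497). The calls of E2F4, E2F5 and TFDP1 did not hold throughout, and that of TFDP2 ended in the test against 1.2-fold (log2 fold change -0.27, adjusted p = 0.414, within 2.11e-07 to 0.414). In that test E2F4 (-0.15, adjusted p = 1), TFDP1 (-0.0878, adjusted p = 1) and E2F5 (-0.68, adjusted p = 0.0789) were not called either. With DESeq2 the values were -0.15 for E2F4, -0.66 for E2F5 and -0.0841 for TFDP1, and with library size only -0.0573 for E2F4, -0.58 for E2F5 (edgeR adjusted p = 0.0571) and 0.00908 for TFDP1. Unstranded counts gave -0.31 for E2F5, and no low-count filter gave -0.0743 for TFDP1. With 1 library left out, log2 fold changes ranged from -0.20 to -0.12 for E2F4, -1.04 to -0.35 for E2F5 and -0.10 to -0.0764 for TFDP1. Members called lower numbered 8, but 5 with library size only, 5 with DESeq2 and 4 in the 1.2-fold test. The number was 7 with no low-count filter, with unstranded counts, without shYES1 sample 1 and without shNT sample 1. Without shYES1 sample 3 it was 6. The cause of these differences was not tested. Over all genes the 1.2-fold test called 2324 higher and 2861 lower.

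In the lists, the 1.2-fold test left 0 pocket protein genes, 0 PRC1.6 genes and 0 turnover genes called higher. Scaling on genes without CCTTTC gave 1 higher and 5 lower PRC1.6 genes and 0 higher turnover genes. Over all genes that scaling gave 3568 higher and 5692 lower. Library size only gave 3 higher turnover genes, where 5799 of all genes were higher and 3762 lower. With unstranded counts 1 germline gene was higher. In the reverse-strand counts no germline gene had more than 5 reads in a library, so that call needed reads of the opposite strand. Without division by gene length, the activator ratio was 0.216 in shYES1 and 0.384 in shNT over all repressors, 0.277 in shYES1 and 0.554 in shNT over E2F6 to E2F8, and 0.986 in shYES1 and 1.25 in shNT over E2F4 and E2F5. The share of E2F6 to E2F8 was then 64.2% in shYES1 and 50.05% in shNT. With the sample number as a replicate block, 4628 genes were higher and 4669 lower, and the calls of all 10 members held. The numbers were not taken as pairs because nothing in the labels says that equal numbers share a culture or day. Same-numbered samples deviated together by correlations of 0.0116 to 0.0252, and 4 of 6 libraries were closest to their own number. These values do not settle whether equal numbers belong together. Depth limits E2F5 most, at 13 to 25 reads per library.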

Other observations

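Genes with the pattern most like a member were ranked by Pearson correlation of log2 CPM over the 6 libraries, which share their library and group with the member, among 10597 tested genes of at least 5 CPM. For E2F1 they were SNX25 (0.9975), TADA2B (0.9971) and CCDC34 (0.9971), and 2018 genes exceeded 0.95. For E2F7 they were MVD (0.9997), an enzyme gene of cholesterol synthesis that had 43.8 CPM in shYES1 and 27.4 CPM in shNT, DYRK1B (0.9995) and ILRUN (0.9995), with 2294 genes over 0.95. For TFDP1 they were MYL6 (0.9909), LIN9 (0.9899) and SLC35E3 (0.9877), with 224 genes over 0.95.

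The sequence CCTTTC, which an earlier look at these data had singled out in 3' UTRs, was present in the longest annotated 3' UTR of 48.3% of tested genes scanned. Those 5786 genes had a median log2 fold change of -0.0734, against 0.0931 in the 6188 genes without it. E2F2 and TFDP2 held 4 matches each, E2F7 held 2, and E2F4, E2F5 and E2F6 held 1 each, while E2F1, E2F3, E2F8 and TFDP1 held 0. In members with a match the 3' UTR scanned had 798 (E2F4) to 8088 bases (TFDP2). In members without a match it had 598 (E2F8) to 3288 bases (E2F3). Neither the matches nor the medians were adjusted for length. Of the 6 members that carry CCTTTC, 2 were called higher and 4 lower, and the 4 without it were all called lower. Over all genes tested, 32.5% were called higher and 32.8% lower. The calls of E2F4, E2F5, TFDP1 and TFDP2 did not hold under every alternative. The part of CCTTTC in the values of these genes was not tested.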
